A study of Mus musculus with 38 samples.

Results

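The regions described here are stretches of the mouse embryonic stem cell genome that carried an H3K27ac call in all 3 IκBα-WT libraries and in none of the 3 IκBα-KO libraries. H3K27ac calls of the 6 libraries were merged wherever they shared at least 1 bp, and a merged region was taken when 3 of 3 WT and 0 of 3 KO lists called it. Chromosomes 1 to 19 entered, without a 6 Mb segment of chromosome 2, an 89 Mb segment of chromosome 8 and a 16 Mb segment of chromosome 12, each in the distal part of its chromosome. In those 3 segments the input read density under H3K4me1 calls, set against the rest of the genome, was 0.977 to 0.994 in WT but 1.39, 1.41 and 0.514 to 0.515 in KO, respectively. The rule gave 1505 regions of 46774 merged regions, or 3.22%. They are called lost regions below, which refers to the calls only, because the lists hold no KO read count where no KO call was made. A further 45 regions with the same call pattern lay on chromosome X or Y and 256 lay in the 3 segments, 188 of them on chromosome 12, and these were set aside.

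The cells were ES-E14TG2a mouse embryonic stem cells grown in serum with LIF and harvested at 0 h, before any differentiation. The WT group was 3 clones that had received a scrambled guide RNA. The KO group was 3 clones lacking IκBα (labelled IkappaBalpha-/-), made with Cas9 and a pair of guide RNAs against the first exon of Nfkbia and picked as single cells carrying both guide reporters. Each of 5 histone marks was profiled in the 3 WT and 3 KO clones, with 1 input library per genotype for each of H3K9me3, H3K27me3 and H3K4me3 and 1 shared by H3K27ac and H3K4me1, which makes 38 libraries. The labels give the same antibody for H3K27ac and H3K4me1, whereas the study's methods give a different one for H3K27ac, and which was used was not settled here.

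IκBα, the product of Nfkbia, holds NF-κB transcription factors in the cytoplasm. Acetylation of lysine 27 of histone H3 marks active enhancers and promoters, and H3K4me1 marks enhancers whether or not they are active, so that an enhancer can lose acetylation and keep its monomethylation. H3K4me3 marks promoters, H3K27me3 is laid down by Polycomb repressive complex 2 over silent developmental genes, and H3K9me3 covers heterochromatin and repeats. In embryonic stem cells many promoters of developmental regulators carry H3K4me3 and H3K27me3 together.

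The DNA of 7 lost regions, picked by rank, is shown: the 3 with the highest H3K27ac enrichment among those with at least 10 input reads in every WT list, the 2 promoter regions with the most WT reads, and the 2 with the lowest called H3K4me1 fold change in KO against WT. Each is the central 300 bp of the stretch that all 3 WT lists called, plus strand, RefSeq GRCm38.p6, with matches to the searched motifs in capitals. The first, chr14:107448351-107448650, is 63% soft-masked repeat and holds a TEAD and a forkhead match. The second, chr3:22413051-22413350, holds a KLF match, and the third, chr13:90200251-90200550, holds an estrogen-related receptor, a kappaB and an E-box match.
Trim52-nearest, most enriched: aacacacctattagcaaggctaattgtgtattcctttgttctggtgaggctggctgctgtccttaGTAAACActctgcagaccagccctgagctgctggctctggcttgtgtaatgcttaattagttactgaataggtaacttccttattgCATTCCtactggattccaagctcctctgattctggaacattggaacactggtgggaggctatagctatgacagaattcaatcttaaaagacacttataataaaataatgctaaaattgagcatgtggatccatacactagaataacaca
Tbl1xr1-nearest, enriched: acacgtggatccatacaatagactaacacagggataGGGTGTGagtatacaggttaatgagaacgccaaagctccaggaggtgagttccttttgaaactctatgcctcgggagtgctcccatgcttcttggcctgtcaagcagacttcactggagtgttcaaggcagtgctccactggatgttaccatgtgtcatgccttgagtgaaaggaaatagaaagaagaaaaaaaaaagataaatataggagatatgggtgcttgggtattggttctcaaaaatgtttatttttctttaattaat
Xrcc4-nearest, enriched: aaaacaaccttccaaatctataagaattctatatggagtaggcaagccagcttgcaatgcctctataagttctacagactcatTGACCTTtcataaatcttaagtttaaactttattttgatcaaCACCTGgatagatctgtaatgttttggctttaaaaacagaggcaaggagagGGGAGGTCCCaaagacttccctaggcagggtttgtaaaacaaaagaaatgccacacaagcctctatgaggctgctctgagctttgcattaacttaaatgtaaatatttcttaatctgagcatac

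The promoter-overlapping lost regions lie at Slfn5 (window chr11:82956651-82956950) and Krt1 (window chr15:101856851-101857150), and neither window contains soft-masked sequence. Each window is centred on the stretch that all 3 WT lists called, not on the promoter. Neither window lies in the promoter interval, and the labels below name the lost region, not the window. The Krt1 window holds 1 E-box match and the Slfn5 window no match.
Slfn5 promoter region: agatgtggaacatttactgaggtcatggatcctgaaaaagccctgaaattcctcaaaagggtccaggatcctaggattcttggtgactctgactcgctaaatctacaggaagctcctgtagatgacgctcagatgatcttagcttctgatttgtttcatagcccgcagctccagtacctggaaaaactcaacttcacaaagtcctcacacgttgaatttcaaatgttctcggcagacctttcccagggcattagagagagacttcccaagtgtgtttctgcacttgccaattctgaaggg
Krt1 promoter region: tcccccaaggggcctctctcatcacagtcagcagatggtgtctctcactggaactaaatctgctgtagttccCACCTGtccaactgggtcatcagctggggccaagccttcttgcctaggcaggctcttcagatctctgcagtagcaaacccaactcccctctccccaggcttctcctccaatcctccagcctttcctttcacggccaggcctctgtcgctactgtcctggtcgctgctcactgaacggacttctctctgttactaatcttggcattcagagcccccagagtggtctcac

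The last windows lie nearest to 4930435E12Rik (chr16:38837151-38837450) and Tmprss15 (chr16:79296351-79296650), and they are 64% and 88% soft-masked. The Tmprss15 window holds a TEAD match. In the labels below, lowest and low refer to the H3K4me1 fold change in KO against WT. The H3K4me1 region at each was called in all 6 libraries.
4930435E12Rik-nearest, lowest H3K4me1: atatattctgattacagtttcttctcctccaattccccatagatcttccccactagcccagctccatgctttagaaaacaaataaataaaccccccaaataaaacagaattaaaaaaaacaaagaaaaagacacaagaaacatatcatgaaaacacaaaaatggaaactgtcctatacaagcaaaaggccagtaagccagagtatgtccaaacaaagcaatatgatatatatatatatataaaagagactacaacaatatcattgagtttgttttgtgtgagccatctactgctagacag
Tmprss15-nearest, low H3K4me1: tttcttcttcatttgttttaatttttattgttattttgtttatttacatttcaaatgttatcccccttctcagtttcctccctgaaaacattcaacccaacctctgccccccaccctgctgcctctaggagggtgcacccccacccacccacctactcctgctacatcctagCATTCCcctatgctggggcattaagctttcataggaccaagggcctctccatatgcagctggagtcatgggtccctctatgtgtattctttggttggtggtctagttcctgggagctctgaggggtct

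The H3K27ac lists held 51932 to 57645 calls in WT and 44977 to 47975 in KO, but the KO calls were longer and covered 410.6 to 419.2 Mb against 380.4 to 392.5 Mb. Between 22943091 and 28339766 ChIP reads fell in the calls of a library. Embryonic stem cell identity was checked at the promoters of 7 marker genes: Pou5f1, Sox2, Nanog, Zfp42, Dppa4 and Utf1 carried H3K27ac in 6 of 6 libraries, and the annotated start of Esrrb carried none and had H3K27me3 in all 6. Of the markers of other cell types, Sox17 and Col1a2 had no H3K27ac call, Gata4 had a 9 bp overlap in 1 WT library, and Gata6 and Thy1 had calls in all 6. Col1a1 was called in 3 WT and 2 KO libraries. No pair of clones of 1 genotype agreed within counting noise (chi-square per degree of freedom 1.55 to 1.95), so each library counted as 1 replicate.

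The lost regions chosen from the calls outnumbered the reverse class: 573 merged regions (1.23%) were called in 3 of 3 KO and 0 of 3 WT lists and are called gained regions. This order was not the same under every way of cutting the lists. With an FDR under 0.01 in every list, 1465 regions were lost and 619 gained. A cut by score turned the order, and list depth and ranking by score were not tested apart. When every list was cut to the same number of top-scored calls, that of the shortest list, 929 regions were lost and 1415 gained, and 866 of the 1505 (57.5%) were overlapped by a region lost under that setting. Leaving out WT replicate 3 and asking for 2 of 2 WT lists raised the number to 2386. The pattern next to the rule held similar numbers, with 1223 regions called in 3 WT and 1 KO list and 2055 called in 2 WT and 0 KO lists, whereas 22722 were called in 6 of 6.

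**Figure D1:**
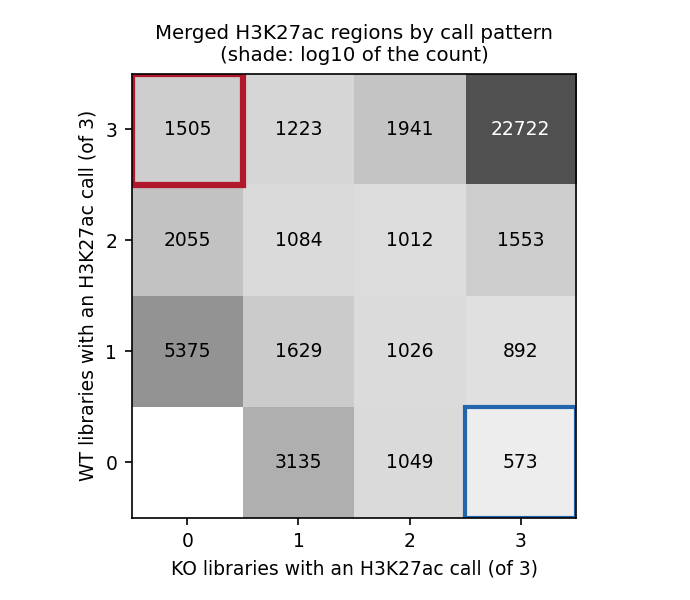
Number of merged H3K27ac regions by how many of the 3 WT libraries (vertical) and 3 KO libraries (horizontal) called them, with shade following the log10 of the count. The 1505 lost regions are framed in red at the top left and the 573 gained regions in blue at the bottom right, beside 22722 regions called in every library.

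Lost regions were short and weakly enriched, as far as the values that chose them show. Their merged width ran from 600 to 15800 bp with a median of 4400 bp (quartiles 3200 and 5800 bp), against 5800 bp for gained regions, 11600 bp for those called in 6 of 6 and 6000 bp over all. At the median lost region, ChIP reads per kb of call were 44.4, 44.7 and 45.6 in WT replicates 1, 2 and 3, over 29.2 input reads per kb in each. The ratio of ChIP to input reads in a region was 1.51, 1.54 and 1.55 at the median, whereas that of regions called in 6 of 6 was 1.73, 1.77 and 1.83 in the same libraries. Both counts are raw reads from libraries of unequal depth, so a ratio ranks regions within a library and is no absolute enrichment. The coefficient of variation of ChIP reads per kb over the 3 WT lists was 8.89% at the median region, in calls that the rule requires all 3 lists to share.

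The ratio summed over the 3 WT libraries ranged from 1.152 to 8.28 with a median of 1.52, and gained regions had 1.41 in KO. The least certain of the 3 WT calls had an FDR with a median of 0.000132, and 1271 of the 1505 (84.5%) stayed under 0.01 in every WT list. Just inside the threshold stood the region nearest to Mrc2 (chr11:105326801-105334800) with a largest WT FDR of 0.05 and a WT ratio of 1.26. Just outside the rule, called in 3 WT lists and 1 KO list, stood the region nearest to Mtmr11 (chr3:96131401-96138400). Its KO call had an FDR of 0.0498, and its WT ratio was 1.3.

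**Figure D2:**
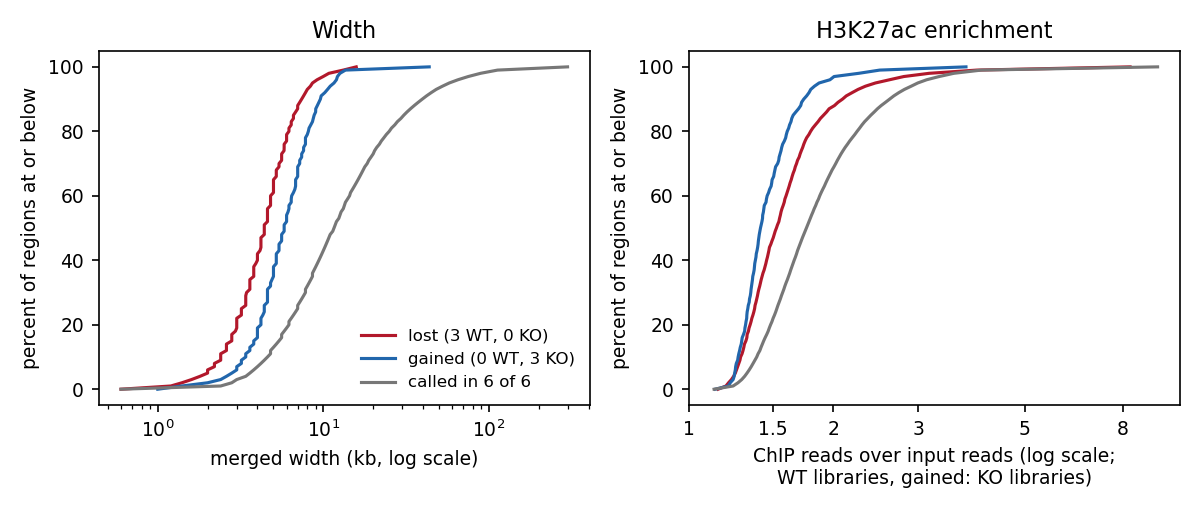
Cumulative percent of regions by merged width in kb (left, log scale) and by H3K27ac ChIP reads over input reads (right, log scale), for lost, gained and 6-of-6 regions, with WT libraries used except for gained regions. Lost regions have a median width of 4.4 kb and a median ratio of 1.52, to the left of the 6-of-6 regions in both panels.

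The distance from lost regions to the nearest acetylated region of KO cells varied widely. The gap to the nearest KO H3K27ac call had a median of 17000 bp. It was at most 1000 bp for 106 lost regions (7.04%) and at most 5000 bp for 384 (25.5%). For 1083 regions (72%) a KO call lay within 50000 bp. Widest of all was a 15800 bp region nearest to Zfp608 on chromosome 18, followed by regions nearest to Car2, inside Gpc5, and nearest to Armc1 and Celf4. The starts lay 137346 bp away for Zfp608, 61328 bp for Car2, 371964 bp for Armc1 and 281056 bp for Celf4.

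Lost regions were found at promoters less often than H3K27ac regions as a whole and more often than gained ones. Of the 1505, 763 (50.7%, Wilson interval 48.2 to 53.2) were intergenic and 499 (33.2%) intronic, against 35.7% and 36.9% of all merged regions. Promoters, taken as 5000 bp upstream to 100 bp downstream of a protein-coding start, held 192 lost regions (12.8%, interval 11.2 to 14.5), against 23.2% of all regions, 37.5% of those called in 6 of 6 and 6.98% of gained regions. The wider a region the likelier it touches a promoter, and lost regions were short. Counted by midpoint alone, the promoter share was 6.05% for lost regions, 7.44% for all and 2.79% for gained ones. The distance from midpoint to the nearest start had a median of 63385 bp against 32111.5 bp over all regions. The promoter-overlapping ones had a median width of 3400 bp and the highest median ratio, 1.66, of the 4 position classes.

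Every autosome held lost regions. Chromosome 3 held 140, or 5.29% of its merged regions, chromosome 15 held 95 (4.66%), and chromosome 19 held 27 (1.87%). Of the 1505, 248 fell into 112 clusters in which neighbours lay within 50000 bp of each other, and 4 of these clusters held 4 or more. The largest cluster held 6 regions nearest to Xrcc4, a DNA end-joining factor gene, over chr13:90167201-90254600. Clusters of 4 lay nearest to Il7, the interleukin 7 gene (chr3:7647801-7714200), to Impad1 (chr4:4526601-4617000) and to Casp12, an inflammatory caspase (chr9:5414601-5490600). None of the Casp12 regions had H3K4me1 in all WT or in all KO libraries, whereas 3 of the 6 at Xrcc4 had it in all WT and 2 in all KO libraries.

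A lost region lay in the body or promoter of 710 of 19819 protein-coding genes (3.58%). The neural ectoderm list stood above that share, with 5 of its 21 genes (23.8%): Pax3, Neurog2 and Nkx6-1, transcription factors of the developing neural tube, Nrcam, a neuronal adhesion molecule, and Map2, a dendritic microtubule protein. The lists were chosen with earlier results of these data known and several of these genes are long, so the count is a description. The Map2 region only partly overlapped the annotated gene body: its midpoint was intergenic, 24666 bp from the nearest start, that of Unc80. Among formative and primed epiblast genes 2 of 19 had a lost region (Cdh2, which encodes N-cadherin, and Lef1, a Wnt effector), and 2 of 19 adhesion and matrix genes (Cdh2 and Thbs1, thrombospondin 1). Single genes were found for endoderm (Dab2), trophectoderm (Krt7), FGF signalling (Fgfr2, through an annotated body that reaches the Hmx2 start), Wnt signalling (Lef1) and TGF-beta signalling (Bmpr1b). No gene with a lost region was found among 22 naive pluripotency, 21 mesendoderm, 29 NF-kappaB pathway, 11 Polycomb repressive complex 2 and 14 DNA methylation genes. The adhesion receptor gene Adgrl3 and the Notch coactivator gene Maml3 held the most, with 4 each, over gene bodies of 804996 and 419170 bp.

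At the listed genes the WT libraries had modest H3K27ac read counts. The region over the Pax3 start (chr1:78194401-78199800) held 105, 205 and 180 ChIP reads in WT replicates 1 to 3 over 64, 160 and 126 input reads. The region at the Neurog2 start (chr3:127630801-127634000) held 133, 127 and 121 over 112, 108 and 85. That is a ratio of 1.25, among the weaker of the lost regions, and a KO call stood 1600 bp away. At Nkx6-1 (chr5:101656201-101660200) the reads were 104, 105 and 166 over 85, 62 and 101. The widest at a listed gene, 12000 bp in an intron of Nrcam (chr12:44336001-44348000), held 454, 469 and 484 reads over 359, 367 and 339.

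Of the 4 other marks, H3K4me1 had the largest difference between genotypes at lost regions. A call covered at least 1 bp of 1176, 1177 and 1184 of the 1505 regions in WT replicates 1, 2 and 3, and of 956, 979 and 999 in KO. The means were 78.3% ± 0.29 and 65.0% ± 1.43 (SD, n = 3), and the groups did not overlap. In bulk chromatin, a mark present in fewer cells and a lower level of it per cell cannot be told apart. The difference was -13.4 percentage points (two-sided exact permutation p = 0.1, the smallest that 3 against 3 libraries allow, 0.2 after Benjamini-Hochberg adjustment over 4 marks). In bases, H3K4me1 calls covered 57.9% ± 0.254 of the lost regions in WT and 41.0% ± 0.305 in KO. At gained regions the share went the other way, from 73.4% ± 0.661 to 88.0% ± 1.14, and at regions called in 6 of 6 it was 96.4% in both genotypes, near its ceiling. Over all merged regions it was 82.2% to 82.4% in WT and 80.8% to 82.2% in KO. The difference between lost and gained regions in this KO minus WT shift was -27.9 points, and between lost and 6-of-6 regions -13.3 points (exact permutation p = 0.1 each, the smallest possible). H3K4me1 and H3K27ac were called against the same input libraries, so the H3K4me1 shift is not fully independent of the rule that chose the regions. Input density under H3K4me1 calls at lost regions, over that of all H3K4me1 calls, was 0.956 to 0.961 in WT and 0.966 to 0.969 in KO. That density covers only stretches with an H3K4me1 call, and the part of the shared input in the shift was not tested.

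**Figure D3:**
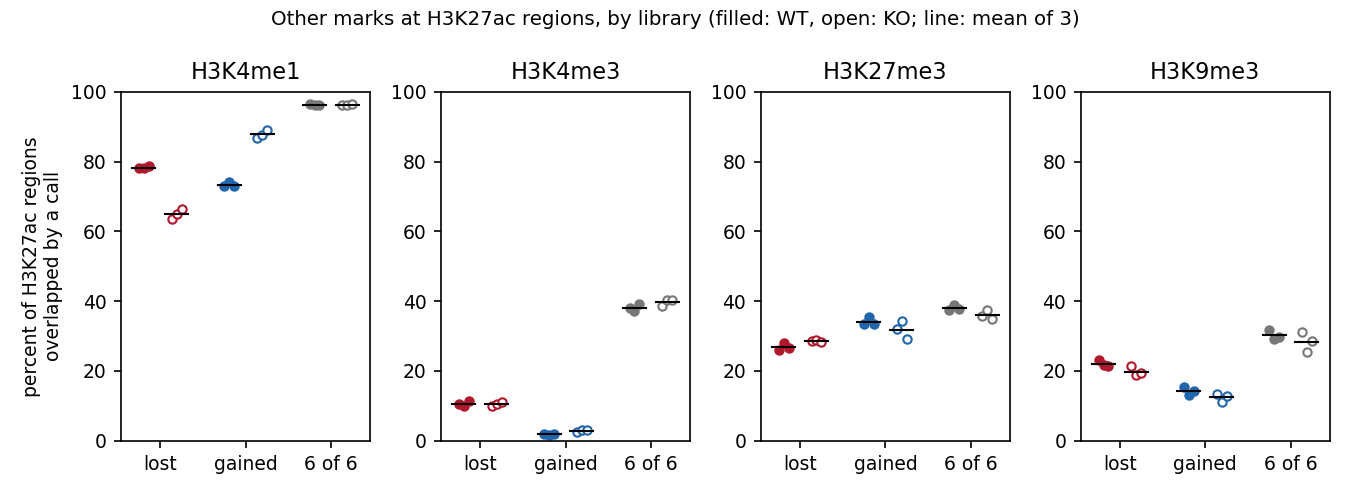
Percent of lost, gained and 6-of-6 H3K27ac regions that a call of each other mark overlapped, 1 point per library (filled WT, open KO) with the mean of 3 as a line. H3K4me1 at lost regions falls from 78.3% in WT to 65.0% in KO, while H3K4me3 is at 10.6% and 10.5%.

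Most lost regions nevertheless kept H3K4me1 in KO cells. It was called in 6 of 6 libraries at 853 lost regions (56.7%) and in no library at 253 (16.8%). Over all merged H3K27ac regions these shares were 73.4% and 10.7%, and over gained regions 63.9% and 6.11%. At 87 lost regions (5.78%) H3K4me1 was called in 3 of 3 WT and 0 of 3 KO lists, against 0.983% of all merged H3K27ac regions, and at 1 in the reverse pattern. By position, the share with H3K4me1 in all 3 libraries went from 63.6% in WT to 46.5% in KO at intergenic lost regions, from 79.6% to 62.5% at intronic ones and from 93.2% to 88.5% at promoters. Over all merged regions the same shares were 71% and 67.9%, 74.1% and 74.7%, and 95.7% and 95.7%. Counting all 4 other marks, 205 lost regions (13.6%) had none in all 3 WT libraries and 418 (27.8%) had none in all 3 KO libraries, against 15.5% and 16.2% of all merged regions. H3K4me1 alone was present at 687 (45.6%) in WT and 486 (32.3%) in KO, against 36.2% and 36.1% over all.

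H3K4me1 reads were compared where the called length was alike in all 6 libraries, which left 106 H3K4me1 regions overlapping 107 lost regions, of 10533 tested outside the segments. These had passed a filter on call and length in every library, so they are a small subset of the 853 lost regions with H3K4me1 in 6 of 6. By edgeR's quasi-likelihood test with Benjamini-Hochberg adjustment, 63 of the 106 (59.4%) were lower in KO and 4 (3.77%) higher, where the background was 20.6% lower and 21.4% higher. The median log2 fold change was -0.18, against -0.01 over all tested and 0.09 at 69 regions overlapping gained ones. When all 884 H3K4me1 regions called in 6 of 6 at lost regions entered, with covered length as an offset, 13 were lower and 14 higher. Over all 42214 regions in that setting, 200 were lower and 2471 higher. The 884 had a median log2 fold change of -0.02 against 0.05 over all, so the density of reads within the called stretch differed little. ChIP over input reads at every H3K4me1 call that met a lost region, including calls of 1 genotype alone, was 2.23 to 2.27 in WT and 2.13 to 2.16 in KO, against 2.36 to 2.38 and 2.39 to 2.41 over all H3K4me1 calls.

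**Figure D4:**
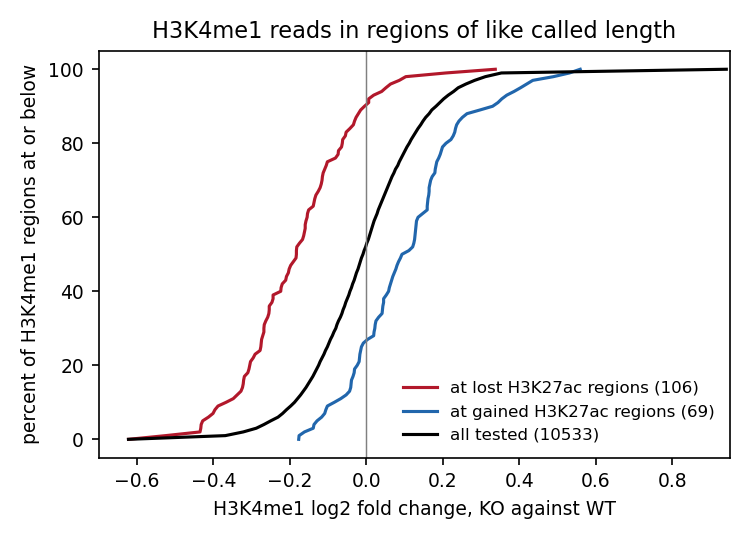
Cumulative percent of H3K4me1 regions of like called length by log2 fold change in reads, KO against WT, at lost regions (106), at gained regions (69) and over all tested (10533). The medians are -0.18, 0.09 and -0.01, and 95 of the 106 regions at lost H3K27ac lie below 0.

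The 5 lowest H3K4me1 fold changes at lost regions were at no gene of the lists above. The H3K4me1 region at chr16:38836401-38838200, nearest to 4930435E12Rik, held 136, 143 and 149 reads in WT and 95, 90 and 84 in KO. All KO values lay below all WT values, and the log2 fold change was -0.62 (SE 0.11, edgeR adjusted p = 2.63e-05). Next came the region nearest to Tmprss15, the enteropeptidase gene, whose start lay 204904 bp away. It held 193, 177 and 194 reads in WT and 130, 107 and 141 in KO (log2 fold change -0.53, SE 0.1). The windows of both are printed above and are largely repeat sequence. An intron of Ust, a sulfotransferase gene, gave -0.44, an intron of Anks1b -0.43 and a region of the Xrcc4 cluster -0.43. The 4 called higher, at Nt5c2 (0.34), Tiam1 (0.21), nearest to Psmd4 (0.1) and Tfip11 (0.09), were H3K4me1 regions of 41000 to 60200 bp of which the lost region was a small piece.

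Of the lost regions at neural ectoderm genes, those at Pax3, Neurog2 and Nkx6-1 overlapped H3K4me1 calls in all 6 libraries, with fewer reads in KO. The H3K4me1 region over Pax3 (chr1:78187201-78205400) held 1629, 1700 and 1585 reads in WT and 1366, 1300 and 1282 in KO, a log2 fold change of -0.27 (SE 0.04, edgeR adjusted p = 1.94e-06). That over Neurog2 (chr3:127623801-127635800) held 1184, 1153 and 1207 in WT and 998, 990 and 991 in KO (-0.20, SE 0.04, adjusted p = 0.000352 in edgeR). That over Nkx6-1 gave -0.18 (SE 0.04, adjusted p = 0.00068 in edgeR). In all 3 the WT and KO H3K4me1 read counts did not overlap. H3K27me3 covered these lost regions from end to end in all 6 libraries. Its reads in the wider H3K27me3 regions around them were also lower in KO. The log2 fold changes were -0.15 at Pax3, -0.11 at Neurog2 and -0.15 at Nkx6-1 (adjusted p = 0.00034, 0.0244 and 0.00094 in edgeR). The lost region overlapping Map2 was covered by 3000, 4400 and 3200 bp of H3K4me1 in WT and by 0, 2000 and 1400 bp in KO, and that in Nrcam by 12000, 12000 and 11000 bp in WT and 9200, 8800 and 8200 bp in KO. These had no test of reads. That at Cdh2 kept 5000, 4200 and 5200 bp in KO against 4600, 4200 and 5200 bp in WT.

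Promoter-overlapping lost regions were largely Polycomb-marked. H3K27me3 was called in all 3 libraries at 130 of the 192 (67.7%) in WT and at 135 (70.3%) in KO, against 48.9% and 48% of all promoter-overlapping H3K27ac regions. H3K4me3 was called in all 3 at 106 (55.2%) in WT and 107 (55.7%) in KO, against 75.1% and 75.2%. Both marks stood together at 91 (47.4%) in WT and 96 (50%) in KO, where all promoter-overlapping regions had 38.1% and 37%. The sequence of promoter-overlapping lost regions was CpG-richer than that of lost regions as a whole, with a median observed over expected CpG of 0.385 against 0.186. The value for all promoter-overlapping H3K27ac regions was not computed.

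**Figure D5:**
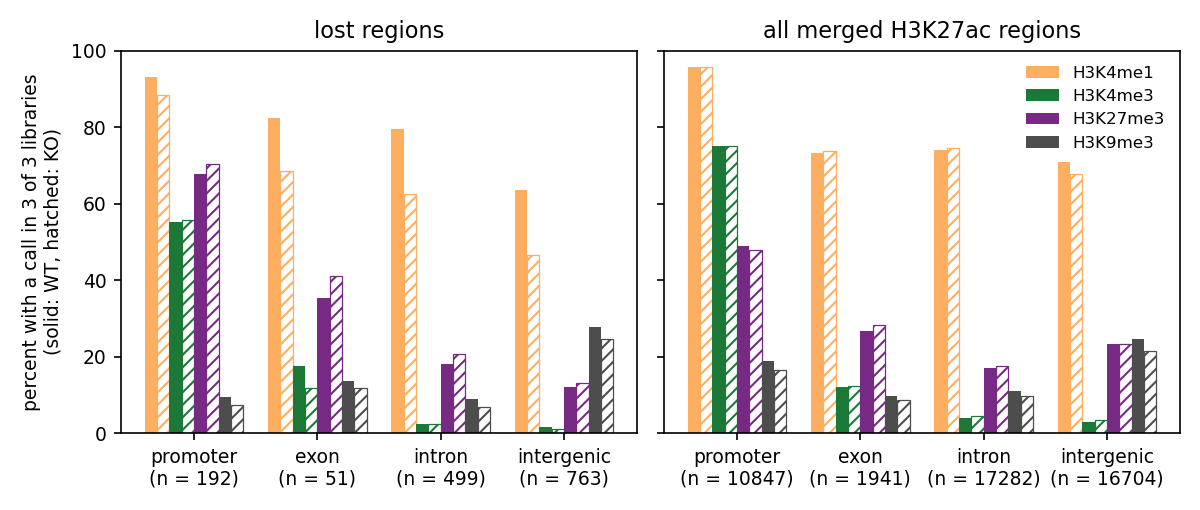
Percent of lost regions (left) and of all merged H3K27ac regions (right) with a call of H3K4me1, H3K4me3, H3K27me3 or H3K9me3 in 3 of 3 libraries, by position, solid bars WT and hatched bars KO. H3K27me3 stands at 67.7% of lost promoter regions in WT and 70.3% in KO, and H3K4me1 is lower in KO in each of the 4 position classes of lost regions.

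Across all 1505 lost regions H3K27me3 was called at 391, 423 and 400 in WT and at 431, 434 and 425 in KO, or 26.9% ± 1.1 and 28.6% ± 0.304 (n = 3). The groups did not overlap, and the difference of 1.68 points had an exact permutation p of 0.1, the smallest possible (0.2 after adjustment). The KO lists of H3K27me3 covered more of the genome, 266.6 to 278.2 Mb against 214.1 to 258.9 Mb in WT. Over all merged H3K27ac regions the share was 32.65% to 34.38% in WT and 31.78% to 34.23% in KO. The shift at 6-of-6 regions was -1.93 points and that at lost regions exceeded it by 3.62 points (exact permutation p = 0.1). Of 69 H3K27me3 regions of like length overlapping 72 lost regions, edgeR with Benjamini-Hochberg adjustment called 29 (42%) lower and 15 (21.7%) higher, where the background was 19.9% and 14.4%, with a median log2 fold change of -0.05 against -0.01 over all tested. These H3K27me3 regions were 7200 to 275400 bp wide with a median of 34600 bp, each wider than the lost region it overlapped. With all 378 and the length offset, 24 were lower and 1 higher, where 416 were lower and 35 higher of 17634 over all. The median log2 fold change was then -0.09 at lost regions against -0.10 over all. H3K4me3 was called at 10.6% ± 0.77 of lost regions in WT (9.9% to 11.4% over the 3 libraries) and at 10.5% ± 0.507 in KO (9.97% to 10.96%). These groups overlapped, and the difference was -0.0886 points (exact permutation p = 1).

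Several developmental regulators were among the promoter regions, singled out after their values were seen. The region at the Hoxd9 and Hoxd10 starts (chr2:74686601-74693800) held 278, 342 and 328 H3K27ac reads in WT over 170, 230 and 227 input reads. It was covered from end to end by H3K4me1 and by H3K27me3 in all 6 libraries. The H3K4me1 region of 89200 bp around it held 8977, 9192 and 8973 reads in WT and 7163, 7214 and 7013 in KO, a log2 fold change of -0.30 (SE 0.02, edgeR adjusted p = 4.28e-17). The H3K27me3 region of 148800 bp around it gave -0.17 (SE 0.03, edgeR adjusted p = 8.14e-06), so both marks had fewer reads in KO over the wider Hoxd locus. H3K27me3 reads were also lower around Pou3f2, a neural POU factor, by edgeR, with a log2 fold change of -0.21 (SE 0.04, adjusted p = 4.26e-06), and around Nr2f1, an orphan nuclear receptor (-0.20, SE 0.04). They were higher around Krt1, a keratin gene, at 2089, 2061 and 2210 reads in WT and 2662, 2840 and 2654 in KO (0.30, SE 0.04). The lowest value, -0.62 (SE 0.04), belonged to the 52400 bp H3K27me3 region around an intronic lost region of Cdkn2a, a cell cycle inhibitor gene, with 3566, 3835 and 4073 reads in WT and 2623, 2561 and 2588 in KO.

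The promoter regions with the most WT reads were at Slfn5, an interferon-inducible gene, Krt1, Irgm1, an immunity-related GTPase gene, Dpp4, a cell surface peptidase gene, and Gimap5, a lymphocyte GTPase gene. The Slfn5 region held 546, 389 and 511 reads over 483, 310 and 394 input reads. These regions were 9400 to 15200 bp wide. Their summed ratios were 1.22, 1.33, 1.4, 1.75 and 1.4 in that order, where the median of all lost regions was 1.52. H3K27me3 was called at Slfn5, Krt1, Irgm1 and Gimap5 in all 6 libraries and at Dpp4 in none. At Dpp4 (chr2:62416401-62425800) H3K4me1 covered 5800, 7600 and 5600 bp in WT and 1400, 1400 and 1800 bp in KO, whereas at Slfn5 and Krt1 the WT and KO lengths overlapped.

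H3K9me3 was found mainly at intergenic lost regions. It was called in all 3 WT libraries at 212 of 763 (27.8%) and in all 3 KO libraries at 188 (24.6%), against 24.5% and 21.4% of all intergenic regions. Over all lost regions it was called at 347, 327 and 321 in WT and at 322, 282 and 290 in KO, 22.0% ± 0.905 and 19.8% ± 1.41 (n = 3). These groups overlapped, and the difference of -2.24 points had an exact permutation p of 0.2 (0.267 adjusted). The KO lists of H3K9me3 covered less of the genome, 172.5 to 185.7 Mb against 201.7 to 207.3 Mb in WT. Of 63 H3K9me3 regions of like length at lost regions, edgeR called 2 lower and 2 higher, 3.17% each, where the background was 7.35% and 6.13%. The 4 became 2 without WT replicate 2, KO replicate 2 or KO replicate 3 and 0 without WT replicate 3, where edgeR gave 13 at an unadjusted p under 0.05.

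Of lost regions with at least 10 input reads in every WT list, the 5 most enriched carried no H3K4me1. The region at chr14:107446801-107449200, nearest to Trim52 at 1341803 bp, held 92, 59 and 77 ChIP reads in WT over 14 input reads in each, a summed ratio of 5.43. That at chr3:22413001-22413600, nearest to Tbl1xr1 at 336649 bp, held 44, 73 and 56 over 10, 11 and 11, a ratio of 5.41. The ratios of the 5 rest on 10 to 30 input reads per library. The following ones lay nearest to Xrcc4 (5.14, 110593 bp away), Rarb (5.11, 384345 bp away) and Vmn2r83 (4.35, 27170 bp away). None of these 5 had an H3K4me1, H3K4me3 or H3K27me3 call in any library, and the Tbl1xr1, Rarb and Vmn2r83 ones were covered by H3K9me3 from end to end in all 6.

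Lost regions were poorer in G and C than other H3K27ac regions, with a median of 42.7% against 45.2% over all, 45.4% for gained and 45.6% for 6-of-6 regions. The soft-masked share was 20.5% against 21% over all. Among them, those with H3K27me3 in all WT libraries had 48.9% GC, and the 281 with H3K9me3 had 40.4% GC and 26.2% soft-masked bases. The 253 with H3K4me1 in no library had 39.4% GC and 26.4% soft-masked bases. GC content changes how readily a fragment is amplified and sequenced, and its part in the calls was not tested.

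The central 300 bp of each merged region was searched on both strands for 13 motifs. The octamer ATGCAAAT, read by POU factors, was in 41 lost windows (2.72%) against 1.79% of all windows, and GGAATG, read by TEAD factors, in 290 (19.3%) against 15.9% of all and 19.2% of gained windows. GGGTGTG, read by KLF factors, was in 5.38% against 6.94%, and AAGGTCA, read by estrogen-related receptors, in 5.18% against 6.19%. The kappaB motif of NF-kappaB was in 74 windows (4.92%) against 5.41% of all. AP-1 (TGANTCA, 9.77% against 9.64%), SOX core (ACAATGG, 3.99% against 4.35%), AGATAAG, read by GATA factors (4.12% against 4.03%), forkhead (TGTTTAC, 4.58% against 4.43%), ETS (CCGGAAG, 1.79% against 1.71%), T-box (AGGTGTGA, 1.59% against 1.34%), CTCF core (CCACNAGG, 4.19% against 4.49%) and E-box (CAGGTG, 19.3% against 20.5%) were the other motifs searched. The part of GC content in these shares was not tested, and letters in a window are no evidence of binding.

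Lost regions that also overlapped a region of another mark restricted to 1 genotype, called in 3 of 3 lists of it and 0 of 3 of the other, were mostly of 1 kind. WT-restricted H3K4me1 regions overlapped 87 lost regions (5.78%), against 0.48% of 6-of-6 and 0.175% of gained H3K27ac regions, and 1.83% of all H3K4me1 regions were of this kind. KO-restricted ones, 1.24% of H3K4me1 regions, overlapped 1 lost region, at Zdhhc3 (0.0664%), against 0.739% of 6-of-6 and 4.71% of gained regions. Widest of the 87 were 15600 bp in an intron of Gpc5, a glypican gene (chr14:115208601-115224200), and 13800 bp in an intron of Car10, a carbonic anhydrase-related gene (chr11:93552001-93565800). Other H3K4me1 calls within them remained in 1 KO library at Gpc5 and in all 3 at Car10. At Gpc5 H3K4me1 covered 8400, 6600 and 9000 bp in WT and 1400, 0 and 0 bp in KO, and at Car10 10000, 9200 and 10400 against 3800, 4000 and 3200 bp.

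For the other marks these overlaps were few. KO-restricted H3K4me3, 2.97% of all H3K4me3 regions, met 1 lost region (0.0664%, against 2.78% of 6-of-6 regions), at Pcdh10, a protocadherin gene. There the whole region was under H3K27me3 in all 6 and H3K4me3 covered less in KO in total, 1273, 1686 and 1172 bp against 2530, 2374 and 3200 bp. KO-restricted H3K27me3, 1.51% of H3K27me3 regions, met 8 lost regions (0.532%, against 0.546% of 6-of-6 regions), among them an intron of Slit3, an axon guidance ligand gene, where H3K4me1 covered 3400, 5800 and 5800 bp in WT and 0 bp in KO. WT-restricted H3K27me3, 1.06% of H3K27me3 regions, met 2 (0.133%, against 1.51%). WT-restricted H3K9me3, 2.37% of H3K9me3 regions, met 8 (0.532%, against 1.3%), including 1 nearest to Nfkbiz, an NF-kappaB family gene 211598 bp away, and KO-restricted H3K9me3, 0.38% of H3K9me3 regions, met 1.

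Several of these lay close to the excluded segments. The Itgb8 promoter region (chr12:119236201-119240800) lay past the end of the chromosome 12 segment. It had H3K27me3 over 3800, 4200 and 4200 bp, H3K4me1 over 3800, 4200 and 4000 bp and H3K9me3 over 800, 1400 and 1000 bp in WT and none of the 3 in any KO library. In the short stretch between the segment and the chromosome's end, 5 to 7 H3K4me1 calls were made in WT and 0 in KO, so whether that stretch shares the segment's input density in KO cannot be read from the calls. The region nearest to Dok5 (chr2:171112001-171124400) lay beyond the chromosome 2 segment, where KO input density was 0.921 to 0.933 of that outside the segments and WT 0.932 to 0.936. There were 5 lost regions within 2 Mb of the chromosome 2 segment and 6 within 2 Mb of the chromosome 12 segment, and without these 11 the H3K4me1 difference was -13.1 points.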

How the data were processed

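Chromatin of 3 WT and 3 KO clones was immunoprecipitated for 5 marks and sequenced as 50 bp single-end reads. The authors trimmed reads with Trim Galore 0.6.6, aligned them to GRCm38 with Bowtie2 2.4.4, dropped poorly and multiply mapped reads, marked duplicates with SAMtools 1.15 and removed blacklisted regions. For H3K9me3 and H3K27ac the aligner is not given in the sources used here. Broad marks were called by the authors per library against the genotype's input with epic2 0.0.52 (named SICER in the labels) and kept at an FDR of 0.05, and H3K4me3 with MACS2 2.2.7.1.

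The deposited epic2 lists hold ChIP and input read counts per call, a p-value and an FDR, a score and a log2 fold change against input. The deposited MACS2 lists hold a score, a fold enrichment, a −log10 p-value and a −log10 q-value. The counts, FDR, score and −log10 q-value were used, and the other columns were not. The epic2 score, which ranked the top-scored calls, follows the log2 fold change of ChIP over input. Calls exist only where a library passed the threshold, so no KO H3K27ac count exists at a lost region.

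Calls were merged at 1 bp overlap within a mark, and regions were annotated with GENCODE release 21 for mouse. Shares were compared by two-sided exact permutation over libraries, whose smallest p is 0.1 for 3 against 3. ChIP counts summed per region, where the shortest called length was at least 0.8 of the longest over the 6 libraries, were tested with edgeR 4.0.16 (quasi-likelihood, TMM, Benjamini-Hochberg over all regions tested, threshold 0.05). The script was checked on simulated counts. Alternatives were DESeq2 1.42.0, library totals, covered length as an offset, a minimum of 50 reads, each library left out, and the replicate number as a block. Depth is known only as reads in calls, and Wilson intervals cover counting of regions only.

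Regions named in the text were the 5 most enriched over input (at least 10 input reads in each WT list), the 5 widest, the 5 promoter regions with most WT reads, those at listed genes, those with the lowest and highest called H3K4me1 fold change (5 each, of which 4 higher existed), and up to 3 per mark and genotype overlapping a restricted region. Any other region is said to have been chosen after its values were seen, or stands beside a threshold. The overlap with WT-restricted H3K4me3 is not reported here. The regions, gene lists and motifs were chosen with earlier results of these data known. Clone numbers did not pair the libraries: the correlation of same-numbered deviations was -0.00 to 0.11. Sequence was read from RefSeq GRCm38.p6 with samtools 1.23.1.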

Additional observations from a re-analysis of the deposited data

How the results depend on the processing

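The number of lost regions moved from 1505 to 929 with the same number of top-scored calls per list and to between 1798 and 2386 when 1 library was left out, the highest being without WT replicate 3, where fewer lists have to agree. The share differences were -14.1 to -12.6 points for H3K4me1, 1.23 to 2.29 for H3K27me3 and -3.03 to -1.71 for H3K9me3 with 1 library left out. For H3K4me3 they ran from -0.443 to 0.321 and changed sign without WT replicate 3 (0.321) and without KO replicate 1 (0.188). Called regions at lost H3K27ac regions, lower and higher together, numbered 67 for H3K4me1, 44 for H3K27me3 and 4 for H3K9me3. With 1 library left out they numbered 60 to 65, 34 to 42 and 0 to 4, the 0 being without WT replicate 3 in edgeR (13 at an unadjusted p under 0.05). With all regions called in 6 of 6 and covered length as an offset they numbered 27, 25 and 0 (35 of 282 H3K9me3 regions at an unadjusted edgeR p under 0.05). For H3K4me1 the balance turned from 63 lower and 4 higher to 13 and 14. All 42214 H3K4me1 regions in that setting had 200 lower and 2471 higher, and the cause was not tested. DESeq2 gave 55, 40 and 1, and library totals 80, 44 and 6. The replicate block gave 70, 44 and 3, although clone numbers carry no pairing by their correlations. The added alternatives, chosen after seeing the data, kept every share difference on its side: they left out lost regions with a KO H3K27ac call within 5000 bp, with a WT FDR of 0.0001 or more, or within 2 Mb of the segments. Sites with a KO signal just under the calling threshold cannot be told from sites with none, since no KO count is listed there.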

Other observations

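Covered length gave a view of the other marks that counts part losses. These shares were not computed over all merged H3K27ac regions, so the counts are a description. The 6-of-6 regions set beside them were wider, with a median of 11600 bp against 4400 bp. At 377 of the 1505 lost regions (25%) every KO library covered fewer bases with H3K4me1 than every WT library, and at 7 (0.465%) every KO library covered more. At regions with H3K27ac in 6 of 6 the shares were 10.8% and 6.45%, and at gained regions 1.75% and 16.6%. For H3K27me3 every KO library covered fewer bases at 8 lost regions (0.532%) and more at 30 (1.99%), whereas at 6-of-6 regions 4.58% had fewer and 2.27% more. For H3K9me3 it was fewer at 29 (1.93%) and more at 5 (0.332%), below the 2.85% and 2.03% of 6-of-6 regions. For H3K4me3 it was fewer at 32 (2.13%) and more at 11 (0.731%), against 2.28% and 10.4% of 6-of-6 regions.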
